A study of Mus musculus with 2 samples.

Results

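The genes described here encode the factors that start and extend protein chains on the cytosolic ribosome and the aminoacyl-tRNA synthetases that load amino acids onto transfer RNA. They were chosen by gene symbol alone, as every gene in the deposited expression table whose symbol begins with Eif or Eef followed by a digit, or is that of a synthetase written as an amino acid letter and ars, with or without the 2 that marks a mitochondrial form. The rule found 85 of the 8249 genes in the table. These were 45 initiation factor genes, 4 kinases of the initiation factor eIF2, 7 elongation factor genes, 20 genes of cytosolic synthetases, 8 genes of mitochondrial synthetases and the pseudogene Eif4a-ps4. All 85 were above 1 FPKM in both libraries (sequenced fragments scaled by transcript length and library depth), so the filter on low values removed none.

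RNA was sequenced from 2 lymphomas of L-DKO mice, whose alleles the labels do not spell out and whose E protein levels are high according to the title of the series. The tumour called the gut lymphoma below grew in a Peyer's patch, a lymphoid follicle of the intestine, of a mouse aged 26 weeks, and the thymic lymphoma came from a mouse aged 30 weeks. Neither bound the CD1d tetramer that stains natural killer T cells. Neither group has a treatment in the labels, and whether the RNA came from sorted cells or whole tumour tissue is given differently by the design text and the protocol. With 1 library per site no difference has a replicate check, no test was run, and site, mouse and age cannot be told apart.

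Translation begins when eIF2 brings the initiator tRNA to the small ribosomal subunit, eIF3 holds the assembly together and eIF4F, made of the cap-binding protein eIF4E, the scaffold eIF4G and the helicase eIF4A, recruits the mRNA. eEF1A then delivers each charged tRNA and eEF2 moves the ribosome along. The pathway is restrained at known points: eIF2 kinases block the recycling of eIF2 by its exchange factor eIF2B, eIF4E-binding proteins sequester eIF4E until the kinase mTOR phosphorylates them, and eEF2 kinase inactivates eEF2. When eIF2 is phosphorylated, the transcription factor ATF4 is made, and in mammals several synthetase genes are among those it induces through composite sites in their promoters.

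Promoter sequence is shown for synthetase genes that hold TGATGCAA, a form of such a composite site, because the genes with these letters include 3 of the 4 cytosolic synthetase genes at least 4-fold apart. The other such gene, Vars, had no matched promoter and was not searched. RefSeq promoters (build GRCm38.p6, from 250 bases before to 50 bases after the annotated start) were matched for 64 of the 85 members. These letters, searched on both strands, were found in 4 of them, and these were 4 of the 13 cytosolic synthetase genes with a promoter. The same letters were held by 1.03% of all RefSeq genes and by 0.546% of the genes in the expression table with a promoter. The 4 genes were Aars, Iars, Tars and Yars, and windows of 3 of them are printed. In each line below the capitals mark the match, read along the gene's own strand, and in Iars and Tars it lies as the reverse complement.
Iars: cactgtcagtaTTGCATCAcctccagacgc
Tars: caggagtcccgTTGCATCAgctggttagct
Yars: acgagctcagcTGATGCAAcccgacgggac

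The Iars window is chr13:49682126-49682155 on the plus strand, with the match beginning at position 8 from the annotated start. The Tars window is chr15:11399655-11399684 on the minus strand with the match at -15, and the Yars window chr4:129189895-129189924 on the plus strand with the match at 4. Aars, Iars and Tars also held CACGTG, the palindromic E-box that MYC binds, and Yars did not. These 4 genes did not move one way: Iars, Aars and Tars were higher in the gut lymphoma and Yars was higher in the thymic lymphoma. CACGTG was held by members that differed in either direction. Those higher in the thymic lymphoma included Eef2k, Eif4a1, Eif5a and Eif1b. Tars and Yars, which differed in opposite directions, both held CAGCTG, another E-box form. A match of letters is a description and was not tested as a binding site.

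Most cytosolic synthetase genes were higher in the gut lymphoma. Differences are given as log2(FPKM + 1) in the gut lymphoma minus the thymic lymphoma. Of the 20 genes, 17 were above 0, and their median difference was 0.98 against 0.05 over the 8245 genes kept. Of the 20, 10 were higher in the gut lymphoma by 2-fold or more, where 24.7% of all genes were, and 1 was higher in the thymic lymphoma by 2-fold or more, where 25.5% of all genes were. At the stricter 4-fold threshold, a difference of at least 2, the counts were 3 and 1, against 7.84% and 12.0% of all genes. Relative to the median of all genes, the class median lay between 0.87 and 0.94 higher under the 8 alternatives to scale, pseudocount and filter. The filters removed no member, and rescaling shifts the class and all genes nearly alike, so these could hardly move the value. The alternatives that could were the pseudocounts of 0.1 (0.94) and 5 (0.87) and the authors' standard scores (0.87).

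**Figure D1:**
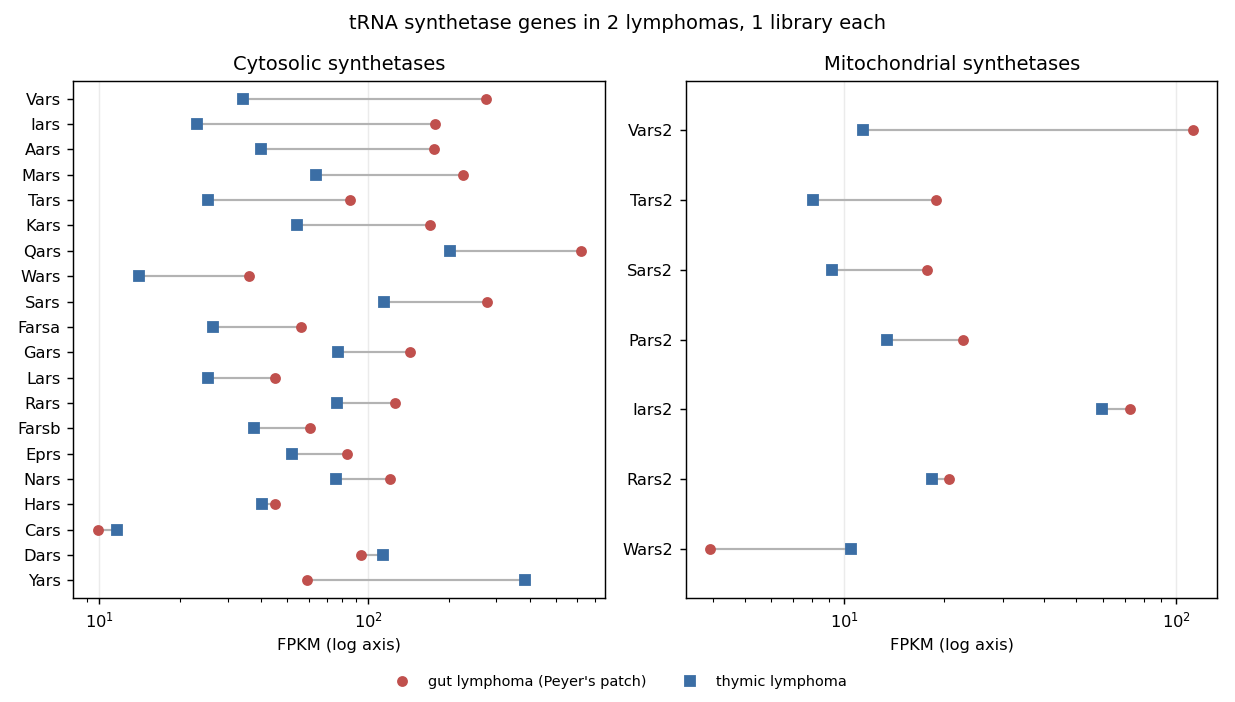
Expression of each synthetase gene in FPKM on a log axis, with 1 point for the gut lymphoma and 1 for the thymic lymphoma, cytosolic enzymes on the left and mitochondrial enzymes on the right, sorted by their difference. The right panel draws 7 of the 8 mitochondrial genes. In 17 of 20 cytosolic and 6 of the 7 mitochondrial genes drawn the gut lymphoma point lies to the right, and Yars shows the widest gap the other way.

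The valine, isoleucine and alanine enzymes were the 3 cytosolic synthetases at least 4-fold higher in the gut lymphoma. Vars, the cytosolic valine synthetase, stood at 275 FPKM in the gut lymphoma and 34.1 in the thymic lymphoma, a difference of 2.97. Iars, which charges isoleucine tRNA, stood at 178 and 23.1 FPKM, a difference of 2.89. Aars, which charges alanine tRNA, stood at 176 and 40.1 FPKM. Its difference of 2.11 was the closest to the threshold of the 3, and 22.4% of the 50-base words of its longest annotated transcript also occur in transcripts of Exosc6, so part of its signal may be ambiguous. The leucine enzyme Lars, also of a branched-chain amino acid, differed less, at 45.2 and 25.3 FPKM.

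The tyrosine enzyme went against the class. Yars stood at 59.1 FPKM in the gut lymphoma and 382 in the thymic lymphoma, a difference of -2.67. In the thymic lymphoma it was therefore the highest of all 20 cytosolic synthetase genes, ahead of Qars at 201 FPKM, while in the gut lymphoma it ranked in the lower part of the class. Vars exceeded Yars 4.65-fold in the gut lymphoma and stood at 0.0893 of its level in the thymic lymphoma. Of the 50-base words of the longest Yars transcript, 0% were shared with another annotated gene. The other members below 0 were Dars (93.8 and 113 FPKM), for aspartate, and Cars (9.84 and 11.6 FPKM), for cysteine. Both lay within 2-fold, and both moved above 0 when the libraries were rescaled to the same total. That rescaling also raised the median of all genes, to 0.57.

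Between these extremes the synthetase genes formed a graded series. Mars (225 and 63.9 FPKM), which charges both initiator and elongator methionine tRNA, differed by 1.80, Tars (85.5 and 25.3), for threonine, by 1.72, and Kars (169 and 54.6), for lysine, by 1.62. Qars, the glutamine enzyme, had the highest level of the class in the gut lymphoma, at 619 and 201 FPKM. Wars, the tryptophan enzyme known to be induced by interferon gamma, was at 35.9 and 14.1 FPKM, and the serine enzyme Sars at 276 and 115. The 2 subunits of the phenylalanine enzyme, which assemble in equal number, were at 56.4 and 26.4 FPKM for Farsa and 60.7 and 37.6 for Farsb, with differences of 1.07 and 0.68. Gars (143 and 77.0 FPKM), Rars (126 and 76.5), Nars (120.5 and 76.0) and Eprs (83.2 and 52.1) lay within 2-fold, as did Hars at 45.0 and 40.1 FPKM.

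Membership of the multisynthetase complex and the structural class of the enzyme divided the cytosolic genes little. The 8 synthetases that assemble into that complex had a median difference of 1.21, with 7 above 0, and the 12 free ones had 0.98, with 10 above 0. Class I enzymes, built on a Rossmann fold, had a median of 1.05 and class II enzymes one of 0.98, with 10 genes each. Eprs, which also holds the proline enzyme, was counted in class I only. Of the 3 scaffold genes of the complex, 2 were higher in the thymic lymphoma, against 1 of its 8 enzymes. Aimp1 was at 8.27 and 45.5 FPKM (difference -2.32) and Eef1e1, which carries an elongation factor symbol but serves as a scaffold of the complex, at 40.9 and 79.9 (-0.95), whereas Aimp2 was at 45.1 and 29.2 (0.61). Of the other synthetase partners, Aarsd1, which encodes an editing protein for alanine tRNA, was at 109 and 20.6 FPKM (2.34), and Ptrh2, which encodes a peptidyl-tRNA hydrolase, at 3.75 and 20.3 (-2.16).

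Mitochondrial synthetases were expressed at lower levels than the cytosolic ones. Of 17 listed genes 8 were in the table, with a median level of 19.8 FPKM in the gut lymphoma and 12.4 in the thymic lymphoma, against 107 and 46.1 for the cytosolic class. The median difference was 0.50, with 6 of 8 above 0. Only Vars2, for valine, passed 4-fold, at 113 FPKM in the gut lymphoma and 11.3 in the thymic lymphoma. Its difference of 3.20 was the highest of all 85 members. Of all genes, 7.84% were at least 4-fold higher in the gut lymphoma and 12.0% in the thymic lymphoma. Tars2 was at 18.9 and 8.06 FPKM, Sars2 at 17.7 and 9.14 and Pars2 at 22.8 and 13.5. Iars2 (72.8 and 59.7 FPKM) and Rars2 (20.6 and 18.4) were nearly level. Wars2, below 0, was at 3.93 and 10.4 FPKM.

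For 8 amino acids both the cytosolic and the mitochondrial enzyme could be compared within a tumour. In the gut lymphoma the cytosolic gene had the higher FPKM in all 8 pairs, from 2.44-fold to 15.6-fold. In the thymic lymphoma it had the higher FPKM in 7 of 8, and the exception was isoleucine, where Iars stood at 0.387 of the level of Iars2. Both members of a pair were above 0 in 6 of 8 pairs. For valine both were at least 4-fold higher in the gut lymphoma, and both genes lie on chromosome 17. For tryptophan the 2 enzymes differed in opposite directions, by 1.29 for Wars and -1.21 for Wars2.

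**Figure D2:**
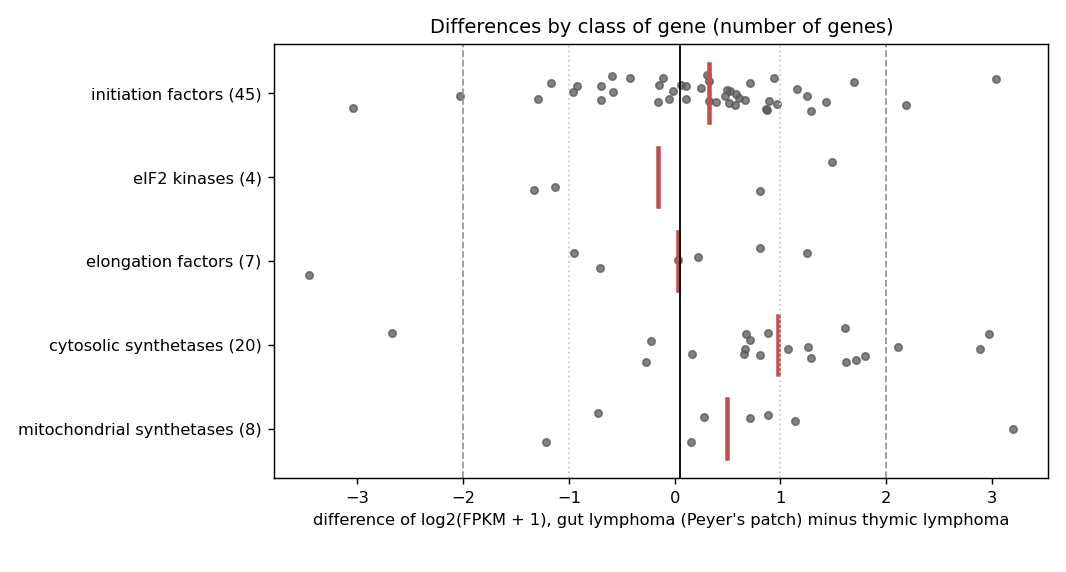
Difference of log2(FPKM + 1), gut lymphoma minus thymic lymphoma, with 1 point per gene in each of 5 classes and points spread vertically only for legibility. The red bars are class medians (0.32, -0.16, 0.03, 0.98 and 0.50 from top to bottom), the black line is the median of all genes at 0.05, and dotted and dashed lines mark 2-fold and 4-fold.

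Initiation factor genes were higher as a class by less than the cytosolic synthetases. Of the 45 genes, 29 were above 0 and the median difference was 0.32. Within 2-fold lay 34 of 45, against 4106 of the 8245 genes kept, and 2 of the 45 were at least 4-fold higher in each tumour. Across all 85 members, 6 were at least 4-fold higher in the gut lymphoma and 4 in the thymic lymphoma, or 7.06% and 4.71% against the background of 7.84% and 12.0%. Levels of the 85 members correlated between the tumours with Pearson's r = 0.81 on the log2 scale, against 0.69 over all genes kept, where points share their library and genes are not independent.

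The eIF2 complex was nearly level between the tumours while its exchange factor was not. Eif2s1, the alpha subunit that the stress kinases phosphorylate, was at 30.4 FPKM in the gut lymphoma and 21.5 in the thymic lymphoma. Eif2s2, the beta subunit, was at 263 and 353 FPKM, and Eif2s3x, the gamma subunit, at 130.1 and 131. Their differences ran from -0.42 to 0.48. Of the eIF2B subunits, the catalytic one, Eif2b5, was at 56.1 FPKM in the gut lymphoma and 5.92 in the thymic lymphoma, a difference of 3.04 and the largest positive one among initiation factors. Eif2b4, the delta subunit, was at 37.3 and 13.2 FPKM, Eif2b3 at 44.6 and 35.4, and Eif2b1, the alpha subunit, at 17.2 and 26.2. The 4 measured subunits of this decamer therefore did not differ alike.

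The kinases that phosphorylate eIF2 split evenly. Eif2ak3, which encodes PERK, the kinase of endoplasmic reticulum stress, was at 54.0 and 18.6 FPKM in the gut and thymic lymphomas. Eif2ak2, which encodes PKR, activated by double-stranded RNA, was at 20.9 and 11.5 FPKM. Both were higher in the gut lymphoma, by less than 4-fold. Eif2ak4, which encodes GCN2, the sensor of uncharged tRNA, was at 9.95 and 26.4 FPKM, and Eif2ak1, which encodes HRI, the kinase that heme restrains, at 15.3 and 34.6. These were higher in the thymic lymphoma, and globin transcripts were higher there too, with a sum of 96390 FPKM over the 4 measured erythroid markers of 6 listed, against 2425 in the gut lymphoma. The part of erythroid cells in the value of Eif2ak1, a kinase prominent in those cells, was not tested, and in tissue RNA fewer cells of a type and less RNA per cell cannot be told apart.

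Subunits of eIF3 were mostly level, with 11 of 14 genes within 2-fold, against 4106 of the 8245 genes kept. Their median difference was 0.21. Eif3d was the exception past 4-fold. This subunit, which can itself bind the mRNA cap, was at 33.2 FPKM in the gut lymphoma and 138 in the thymic lymphoma, a difference of -2.03 that fell under the threshold with a pseudocount of 5, with rescaling to the same total and with the authors' standard scores. At the other end were Eif3k, at 1141 and 466 FPKM, and Eif3a, the scaffold subunit, at 375 and 167. The core subunits Eif3b (107 and 71.5 FPKM) and Eif3c (199 and 138) were within 2-fold, as was Eif3h (609 and 564). Of the 50-base words of Eif3h, 26.2% occur in other annotated genes. Although the subunits act in one complex, FPKM ranged from 15.8 for Eif3j1 to 1141 for Eif3k in the gut lymphoma. Eif3j1 and its copy Eif3j2 are uncertain, since 91.8% of the 50-base words of the Eif3j2 transcript also occur in other genes, chiefly Eif3j1.

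**Figure D3:**
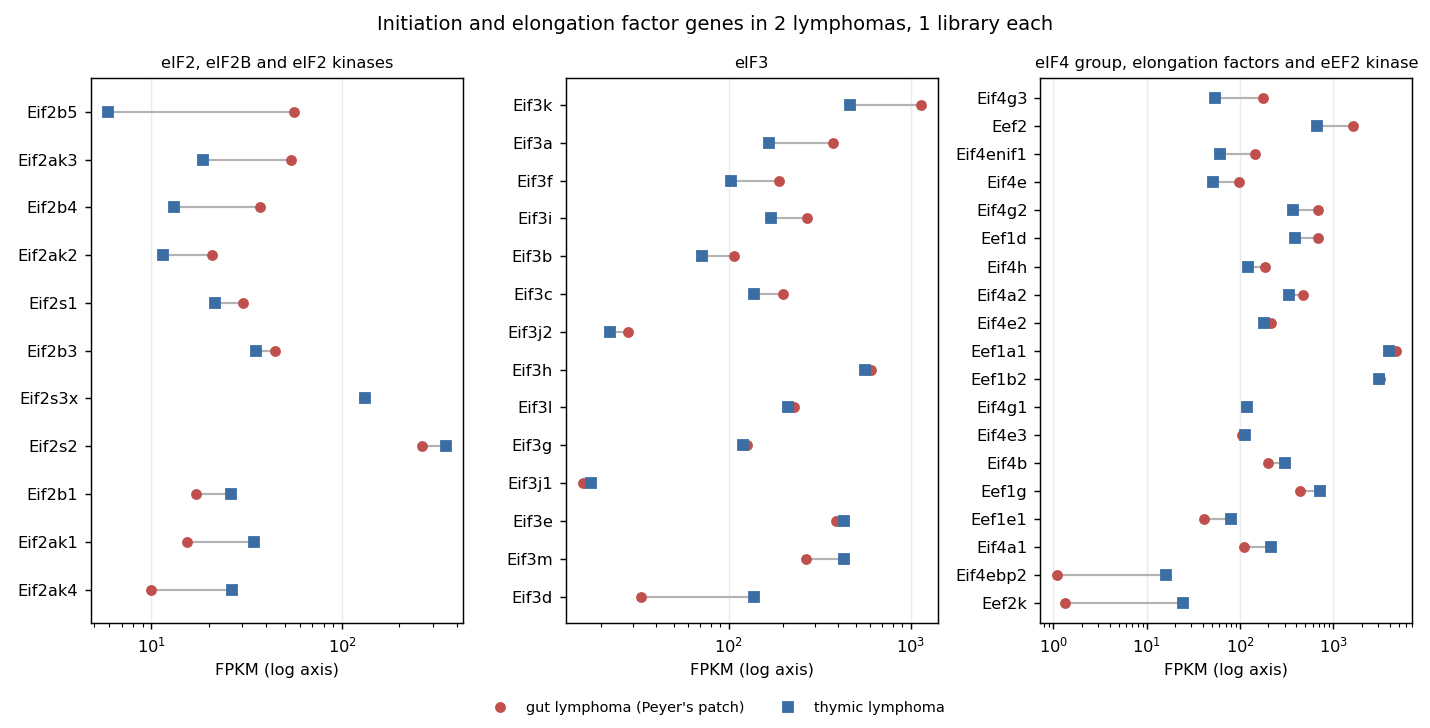
Expression in FPKM on a log axis for eIF2, eIF2B and the eIF2 kinases (left), eIF3 (centre) and the eIF4 group with the elongation factors (right), with 1 point per tumour, sorted by difference in each panel. Eif2b5 is far to the right in the gut lymphoma (56.1 against 5.92), while Eif3d, Eif4ebp2 and Eef2k are far to the left.

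Cap-binding genes differed modestly, and a repressor of the cap-binding protein differed widely. Eif4e, which encodes eIF4E, was at 96.1 FPKM in the gut lymphoma and 51.4 in the thymic lymphoma, and the main scaffold gene Eif4g1 was level at 114 and 119. The related scaffolds were higher in the gut lymphoma, Eif4g3 at 176 and 53.6 FPKM and Eif4g2, which works without eIF4E, at 677 and 372. Of the genes Eif4ebp1, Eif4ebp2 and Eif4ebp3, only Eif4ebp2 was in the expression table. Eif4ebp2, an eIF4E-binding protein that mTOR inactivates, was at 1.10 FPKM in the gut lymphoma and 16.2 in the thymic lymphoma, a difference of -3.04. A value near 1 FPKM is uncertain, since depth is unknown, and with a pseudocount of 5 the difference was -1.80. Eif4enif1, which encodes 4E-T, another protein that binds eIF4E and moves it into the nucleus, went the other way at 145 and 60.4 FPKM. Eif4e2 (216 and 181 FPKM) and Eif4e3 (104 and 112), relatives of eIF4E, were level.

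The helicase genes shifted in their balance. Eif4a1 was at 109 FPKM in the gut lymphoma and 213 in the thymic lymphoma, and Eif4a2 at 476 and 333, so that Eif4a2 exceeded Eif4a1 4.37-fold in the gut lymphoma and 1.56-fold in the thymic lymphoma. The pseudogene Eif4a-ps4, at 41.4 and 142 FPKM, followed Eif4a1. Of its 50-base words 95.7% occur in Eif4a1, so how reads were divided between these 2 genes is uncertain. The helicase cofactors were at 200.4 and 303 FPKM for Eif4b and 185 and 121 for Eif4h. Eif4a3, the helicase of the exon junction complex, was at 143 and 109, and 24.4% of its 50-base words occur in other annotated genes.

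Factors of start codon selection and subunit joining were mixed. Eif1, which guards start codon choice, was at 621 and 497 FPKM, and its relative Eif1b at 93.0 and 151. Eif1ax was at 20.7 and 51.9 FPKM and Eif1a at 36.2 and 21.6. Eif1ad, a gene named for its eIF1A-like domain, was at 54.1 FPKM in the gut lymphoma and 11.1 in the thymic lymphoma, a difference of 2.19, which fell to 1.88 with a pseudocount of 5. Eif5, which triggers hydrolysis of GTP by eIF2, was at 264 and 178 FPKM and the joining factor Eif5b at 65.2 and 46.0. Eif5a, the hypusine-bearing factor that relieves stalled ribosomes, was at 316 and 601 FPKM. Eif2a, an alternative carrier of initiator tRNA, was at 229 and 517 FPKM, and Eif2d at 61.1 and 30.7. Eif6, which keeps the ribosomal subunits apart, was at 645 and 336 FPKM.

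The elongation factor genes Eef1a1, Eef1b2 and Eef2 were among the most abundant members. Apart from Eef2 and its kinase, the genes of this class lay within 2-fold between the tumours. Eef1a1 was the highest of the 85 genes in both, at 4619 FPKM in the gut lymphoma and 3964 in the thymic lymphoma. With Eef1b2 (3149 and 3081 FPKM) and Eef2 (1605 and 672) it made up 40.0% of the summed FPKM of all members in the gut lymphoma and 40.8% in the thymic lymphoma. Of the subunits of the factor that reloads eEF1A with GTP, Eef1b2 was level, Eef1d was at 679 and 389 FPKM and Eef1g at 435 and 708. Values of Eef1a1 and Eef1g are less certain, since 59.2% and 64.3% of their 50-base words occur in other annotated genes, and with the authors' standard scores Eef1a1 and Eef1b2 changed sign.

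The translocase eEF2 and the kinase that inactivates it differed in opposite directions. Eef2 had a difference of 1.25. Eef2k was at 1.34 FPKM in the gut lymphoma and 24.6 in the thymic lymphoma, a difference of -3.45 and the lowest of all 85 members. It stayed at least 4-fold lower in the gut lymphoma under all 8 alternatives run for single genes. Both promoters held the letters CACGTG, which are shown because this pair differed in opposite directions with the same letters at a similar distance from the start.
Eef2: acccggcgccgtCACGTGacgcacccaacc
Eef2k: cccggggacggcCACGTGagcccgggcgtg

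The Eef2 window is chr10:81176576-81176605 and the Eef2k window chr7:120842788-120842817, both on the plus strand of GRCm38.p6, with the capitals beginning at positions -43 and -31 from the annotated start. CACGTG was held by 15 of the 64 members with a promoter (23.4%), by 8.09% of all RefSeq genes and by 12.6% of the genes in the expression table with a promoter. The E-box forms CAGCTG and CAGGTG, to which E proteins bind, were held by 6 and 8 of the 64 (9.38% and 12.5%), against 16.3% and 19.0% of the genes in the table. TGACGTCA, the cyclic AMP response element, was held by 1 of 64, and TGATG, the core shared with TGATGCAA, by 22 of 64 (34.4%), against 4.19% and 30.9%. Each motif was searched on both strands and overlapping matches of TGATG and TGATGCAA were counted under both.

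Genes of the kinase pathway that acts on the eIF4E-binding proteins were mixed, with a wide difference in the kinase itself. Of 26 listed genes of the mTORC1 pathway 17 were measured, 9 above 0, with a median of 0.36. Mtor was at 109 FPKM in the gut lymphoma and 4.50 in the thymic lymphoma, a difference of 4.32. Its partners Mlst8 (12.5 and 3.66 FPKM) and Rptor (43.9 and 26.0) were also higher in the gut lymphoma. Of the restraining genes, Ddit4 was at 225 and 55.1 FPKM and Tsc2 at 30.5 and 12.5, whereas Tsc1, the partner of Tsc2, was at 3.95 and 17.9 and Sesn3 at 6.67 and 32.6. Past 4-fold were Mtor and Ddit4 in the gut lymphoma and Sesn3 in the thymic lymphoma. Ddit4, at a difference of 2.01, fell under 4-fold after rescaling by median ratio or upper quartile and with a pseudocount of 5, and Sesn3 with a pseudocount of 5, after rescaling to the same total and with the standard scores.

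Genes of the integrated stress response, the programme that eIF2 phosphorylation sets off, did not move together. Of 22 listed genes 16 were measured, 7 above 0, with a median of -0.31 that became 0.21 after rescaling to the same total and 0.25 with the standard scores. Relative to the median of all genes it stayed below 0, at -0.36 as deposited, -0.36 with the total and -0.23 with the scores. Atf4 was close, at 155 FPKM in the gut lymphoma and 128 in the thymic lymphoma. Slc7a5, the light chain of the large amino acid transporter, was at 87.5 and 8.34 FPKM, a difference of 3.25, while its heavy chain Slc3a2 was at 40.0 and 185, a difference of -2.18. The serine synthesis genes Phgdh (54.9 and 13.6 FPKM) and Psat1 (194 and 93.8) were higher in the gut lymphoma. Their differences of 1.94 and 1.04 lay under the threshold of 2. Higher in the thymic lymphoma were Atf5 (5.99 and 66.3 FPKM), the GCN2 activator Gcn1l1 (90.7 and 769.7) and Ppp1r15b, a subunit of the phosphatase that reverses eIF2 phosphorylation (5.16 and 44.0).

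**Figure D4:**
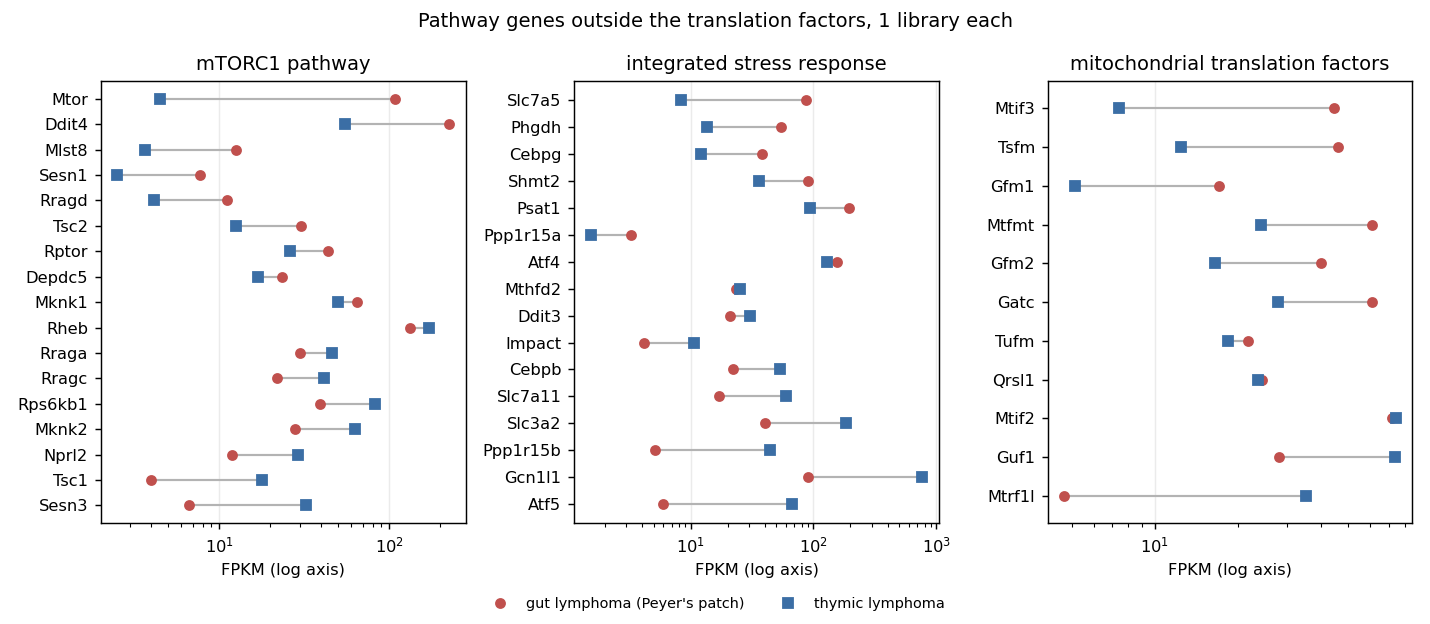
Expression in FPKM on a log axis for measured genes of the mTORC1 pathway (17 genes), the integrated stress response (16) and mitochondrial translation factors (11), with 1 point per tumour, sorted by difference in each panel. Mtor (109 and 4.50 FPKM) and Slc7a5 (87.5 and 8.34) have the widest gaps toward the gut lymphoma, and Atf5 (5.99 and 66.3) has the widest toward the thymic lymphoma.

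Other parts of the translation machinery gave values on either side of the synthetases. Mitochondrial translation factors, with 11 of 17 listed genes measured, had a median difference of 1.11 and 8 above 0, led by the initiation factor Mtif3 at 44.6 and 7.43 FPKM, while the release factor Mtrf1l was at 4.69 and 35.1. Poly(A)-binding proteins and partners had a median of 0.98 over 9 genes, with Pabpc1 at 8302 and 3223 FPKM. Larp4, which encodes a partner of the poly(A)-binding protein, was past 4-fold the other way, at 1.40 and 12.5 FPKM. Of 6 measured release and recycling genes 2 were above 0 and 0 passed 4-fold. Of all genes 7.84% passed it toward the gut lymphoma and 12.0% toward the thymic lymphoma. The 82 cytosolic ribosomal protein genes had a median of 0.66, with 73 above 0, and the 67 mitochondrial ones had 0.06, with 35 above 0. Both lists were taken by symbol. The mitochondrial list includes the pseudogene Mrpl23-ps1, and the cytosolic list includes related genes such as Rpl7l1, Rpl22l1 and Rps27l. Relative to the median of all genes, the median of the cytosolic ribosomal proteins was 0.61 as deposited and -0.12 with the standard scores. For the cytosolic synthetases the same values were 0.93 and 0.87. The scores divide log2 values by each library's own spread, 2.84 in the gut lymphoma and 2.43 in the thymic lymphoma. Differences on that scale therefore fall with level. Median levels were 1447 and 920 FPKM for these ribosomal genes and 107 and 46.1 for the cytosolic synthetases. The part of level in the drop was not tested.

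Measured markers of other cells were higher in the thymic lymphoma, while T cell markers and proliferation genes were mixed. All 5 measured MHC class II and B cell markers of 8 listed (H2-Aa, H2-Ab1, H2-Eb1, Cd74 and Cd79b) were higher in the thymic lymphoma by 4-fold or more, with sums of 330.2 and 2098 FPKM in the gut and thymic lymphomas, and the 3 measured macrophage markers of 5 summed to 277 and 758, with Lyz2 past 4-fold. The 4 erythroid markers, Hbb-bs, Hbb-bt, Hba-a1 and Hba-a2, were each higher in the thymic lymphoma by 4-fold or more, as were 12.0% of all genes. The 7 T cell markers, all measured, summed to 3340 and 2248 FPKM, and the 4 proliferation genes to 405 and 208. Members of both lists differed in direction. Cd4 (109 and 18.8 FPKM) and Zap70 (129 and 17.3) passed 4-fold toward the gut lymphoma, whereas Cd3e was at 172 and 561. Bub1 passed 4-fold toward the gut lymphoma (difference 2.69), whereas Ccnb1 was at 10.4 and 66.1 FPKM. The other listed markers were not analysed here. The part of these differences in the values of the translation genes was not tested.

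**Figure D5:**
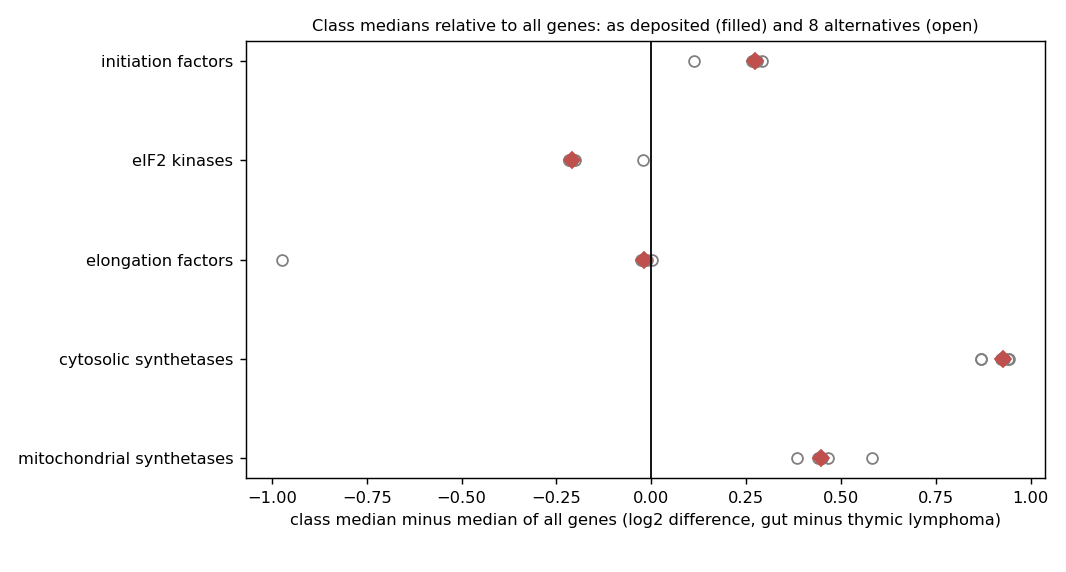
Median difference of each of 5 classes minus the median difference of all genes, as deposited (filled diamonds) and under 8 alternatives of scale, pseudocount and filter (open circles). Cytosolic synthetases stay between 0.87 and 0.94 and mitochondrial synthetases between 0.38 and 0.58, while elongation factors reach -0.97 with the authors' standard scores. Filters and rescaling could hardly move these values, since no member is filtered out and rescaling shifts a class and all genes nearly alike. On the scale of those scores, differences fall with expression level.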

How the data were processed

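Per the labels' protocols, stranded, poly(A)-selected libraries were made from total RNA of 2 tumours. The alignment and quantification tools named in the submitters' processing notes are Cufflinks, GATK, Picard and TopHat, on build mm9. For these tools neither version nor annotation is given in the sources used here. Per the file headers, the authors deposited FPKM and a standard score per gene and library. The deposited FPKM values were read as log2(FPKM + 1), a base and offset inferred from the values (highest 20.65). Each deposited score is a straight line of the log2 value within its library, with residuals of at most 3.5e-08. Depth is unknown, so no counting interval can be given.

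Of 8249 genes, the 8245 that reached 1 FPKM in either library were kept, and a difference of at least 2 (4-fold) was counted as apart. With 1 library per group no test was run. Of the members matched by the symbol rule, the text names every member past 4-fold, the highest and the nearest to 0 of each class, the eIF2, eIF2B and eIF4 subunits, the regulators and all synthetases, except that a few items are not reported here. Of pathway and marker lists it names members past 4-fold. Ribosomal protein and tRNA modification genes, listed after the data were seen, are given by counts and examples, and further genes were picked with their values in view. The members and lists were chosen with earlier results of these data known. The share of 50-base words in common with other genes was computed from GENCODE M21 transcripts, and promoters came from RefSeq. Counting code was checked on simulated data. Alternatives were pseudocounts of 0.1 and 5, no filter or 5 FPKM, thresholds of 2-fold and 8-fold, means for medians, the standard scores, and rescaling by median ratio, upper quartile or total. Python 3.11.15 and pandas 2.3.3 were used.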

Additional observations from a re-analysis of the deposited data

How the results depend on the processing

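With 1 library per site and no counts, neither replicate error nor depth is known, and values near 1 FPKM (Eef2k and Eif4ebp2 in the gut lymphoma) are the least certain. No paired analysis was possible because each group has 1 library. Over all genes the median difference was 0.05 as deposited, 0.57 after rescaling to the same total and 0.48 with the standard scores. With the total, 12 members instead of 6 were at least 4-fold higher in the gut lymphoma, and the class medians became 0.86 (initiation), 0.35 (eIF2 kinases, from -0.16), 0.57 (elongation), 1.51 (cytosolic synthetases) and 1.02 (mitochondrial synthetases). With the standard scores they became 0.59, 0.45, -0.50, 1.35 and 1.06. The elongation median of 0.03 changed sign also by median ratio (-0.022) and with means (-0.40), and the mean of the eIF2 kinases was -0.039. With a pseudocount of 5, which shrinks differences of low values, 2 members instead of 4 passed 4-fold toward the thymic lymphoma, and Eif3d, Eif4ebp2 and Eif1ad fell under the threshold. A 2-fold threshold gave 21 and 10 members, or 24.7% and 11.8% against 24.7% and 25.5% of all genes. An 8-fold threshold gave 2 and 2. Shares over all genes were counted only at 2-fold and 4-fold for the values as deposited. The other counts given here have no such background. Leaving out 11 members that share at least 20% of their 50-base words with another gene, an alternative chosen after seeing the data, raised the initiation median to 0.50. Of single members, 0 past 4-fold changed sign under any alternative. Pseudocounts and filters cannot change a sign, and the shifts by rescaling and scores were small beside a difference of 2. That count is therefore no check of stability. Qars, Kars, Mars, Tars, Eif4g3 and Eif2ak3 passed 4-fold after rescaling to the total, and Mars, Tars and Eif2b4 with the standard scores. The remaining causes were not tested.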

Other observations

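Enzymes that modify tRNA, a list chosen after the data were seen, did not follow the synthetases that charge it. Of 42 genes, 19 were above 0, with a median difference of -0.09 that became 0.41 after rescaling to the same total and 0.58 with the standard scores. Relative to the median of all genes it was -0.14 as deposited, -0.16 with the total and 0.11 with the scores. Ikbkap, the scaffold of the Elongator complex that modifies wobble uridines, was at 44.7 FPKM in the gut lymphoma and 2.0 in the thymic lymphoma, a difference of 3.93. Trmt61a, the catalytic subunit of an adenosine methyltransferase of tRNA, was at 64.6 and 4.70 FPKM, and Nsun2, a cytosine methyltransferase, at 166.7 and 35.2. Higher in the thymic lymphoma were Osgep, which makes the threonylcarbamoyl mark on tRNA, at 1.07 and 37.2 FPKM, and the Elongator subunit Elp5 at 17.3 and 82.3. Of the other Elongator subunits, Elp2, Elp3 and Elp4 lay within 2-fold (differences of 0.45, 0.43 and -0.01) and Elp6 was at 10.0 and 3.69 FPKM (1.23).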
